A study of Mus musculus with 4 samples.

Results

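The genes of bile acid synthesis, transport and regulation were examined in the liver of Sox17+/- mouse fetuses and of wildtype fetuses. The members were a list of 38 named genes of the pathway, chosen by name and not by a threshold on their values, with 17 synthesis enzymes, 16 transporters and 5 regulators. All 38 had at least 1 probe set annotated to that gene alone, out of 18193 genes so represented on the array, and each gene was read from its brightest probe set by mean signal. Of the 38, 29 lay in the brighter 50% of probe sets and were tested, and 9 were dimmer and are given as signals only.

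The mutant fetuses were Sox17+/-, heterozygous at the gene of the SOX family transcription factor Sox17, and the controls were wildtype, with 2 biological replicates of each. All came from the C57BL/6 (B6) strain at gestation day 17, from dams of 6 to 8 weeks mated with Sox17+/- sires over 3 months old. The liver was separated from the biliary system before RNA was extracted. The type of Sox17 allele, the number of fetuses behind a replicate and their sex were not given in the sources used here. Each replicate was hybridised to 1 Affymetrix array, and the values are probe set signals in array units, scaled by the authors so that each array had the same trimmed mean.

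Bile acids are made from cholesterol in hepatocytes by a chain of hydroxylases, ring-modifying enzymes and peroxisomal side chain enzymes, and are then joined to taurine or glycine. Transporters of the canalicular membrane secrete them into bile, and transporters of the sinusoidal membrane take them back up from portal blood. The nuclear receptor FXR (Nr1h4) and the FGF receptor complex of Fgfr4 and Klb repress the synthesis when bile acids are plentiful. In rodents much of this system matures around birth, so the fetal liver expresses it incompletely.

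The promoters of 4 members are shown because these genes stand at the ends of the ranking described below. Akr1d1 and Abcb11 had the lowest differences, beside Cyp7a1, among tested members whose genotypes did not overlap, and Abcb4 and Nr5a2 had the highest after Cyp39a1. Cyp7a1 and Cyp39a1 had no entry in the table of promoters. Each window runs from 250 bases before to 50 bases after an annotated start and is taken from RefSeq, build GRCm38.p6. The windows are chr6:37529923-37530222, plus strand for Akr1d1, chr2:69342567-69342866, minus strand for Abcb11, chr5:8893471-8893770, plus strand for Abcb4 and chr1:136960399-136960698, minus strand for Nr5a2, each written along the gene. Capitals mark matches to AGGTCA, the core motif of nuclear receptors, to its longer form AAGGTCA, to GTTAAT, part of the HNF1 motif, and to ACAAT, a SOX core motif, on either strand.
Akr1d1: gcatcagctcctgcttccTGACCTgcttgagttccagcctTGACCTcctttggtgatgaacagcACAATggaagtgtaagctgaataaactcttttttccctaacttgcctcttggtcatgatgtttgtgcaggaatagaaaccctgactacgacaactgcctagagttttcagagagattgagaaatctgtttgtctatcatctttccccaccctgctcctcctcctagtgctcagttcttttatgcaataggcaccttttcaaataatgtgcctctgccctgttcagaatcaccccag
Abcb11: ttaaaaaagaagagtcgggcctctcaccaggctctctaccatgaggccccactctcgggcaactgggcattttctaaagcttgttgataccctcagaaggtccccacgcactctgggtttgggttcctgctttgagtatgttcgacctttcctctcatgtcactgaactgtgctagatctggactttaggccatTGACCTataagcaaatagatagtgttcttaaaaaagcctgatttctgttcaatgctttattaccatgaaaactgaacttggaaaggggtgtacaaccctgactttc
Abcb4: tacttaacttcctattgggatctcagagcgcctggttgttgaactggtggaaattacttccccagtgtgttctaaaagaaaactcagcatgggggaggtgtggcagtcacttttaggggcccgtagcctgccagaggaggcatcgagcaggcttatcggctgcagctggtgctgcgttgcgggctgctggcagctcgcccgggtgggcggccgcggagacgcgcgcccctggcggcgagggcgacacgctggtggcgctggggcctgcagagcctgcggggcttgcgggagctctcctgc
Nr5a2: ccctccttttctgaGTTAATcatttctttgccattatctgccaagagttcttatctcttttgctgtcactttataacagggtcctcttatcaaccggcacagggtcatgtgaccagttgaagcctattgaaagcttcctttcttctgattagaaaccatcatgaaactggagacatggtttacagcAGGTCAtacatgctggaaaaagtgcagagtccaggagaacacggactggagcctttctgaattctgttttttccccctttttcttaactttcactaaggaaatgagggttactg

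The Akr1d1 window held 2 matches to AGGTCA, both on the opposite strand, and 1 to ACAAT. The Abcb11 window held 1 match to AGGTCA, on the opposite strand, and the Abcb4 window held no match to any of the 4 motifs. The Nr5a2 window held 1 match to AGGTCA and 1 to GTTAAT, both on the strand shown, and a second annotated start of Nr5a2 had a window with no match. AGGTCA was thus present in a window at either end of the ranking. At the high end shown, Abcb4 and Nr5a2 were themselves lower in Sox17+/- liver, with log2 differences of -0.24 and -0.25. No promoter of a member with a higher signal in Sox17+/- liver is shown. Of the 38 members, 29 had an entry, with 36 windows in all. AGGTCA occurred in 12 of these 36 windows (33.3%), against 16.3% of the 32851 windows of all genes, and AAGGTCA, which is also counted within AGGTCA, in 3 (8.33%) against 4.72%. GTTAAT occurred in 4 of them (11.1%) against 7.10%, and ACAAT in 11 (30.6%) against 31.0%. A match is a run of letters and does not show that a factor binds there.

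Before the members, the genotype and the arrays were checked. One Sox17 probe set had signals of 139 and 124 in Sox17+/- liver, against 244 and 264 in wildtype liver, and the other had 105 and 99.6 in Sox17+/- liver, against 238 and 167 in wildtype liver. On both, the Sox17+/- arrays lay below the wildtype arrays, with log2 differences of -0.87 (SE 0.20) and -0.87 (SE 0.24). The files do not show where these probe sets lie relative to the mutation. Markers of hepatocytes were bright on all arrays. Apoa1 among them gave the highest signal of any probe set on both Sox17+/- arrays and on wildtype array 1. Whether such signals lay near the upper limit of the arrays was not tested. The summed signal of the 8 measured hepatocyte markers of 10 listed was 276326 and 159488 in Sox17+/- liver, against 276154 and 166335 in wildtype liver, and none of the 8 separated the genotypes. The arrays numbered 1 had the higher sum in both genotypes, a spread that by itself favours overlap. The summed signal of 7 measured cholangiocyte markers of 10 listed was 3751 and 3464 in Sox17+/- liver, against 3645 and 2999 in wildtype liver, with 1 of the 7 below and 1 above. The ductal keratins Krt19 and Krt7 stayed at or below 131 on all arrays. The summed signal of 5 exocrine pancreas markers was 1648 and 1207 in Sox17+/- liver, against 1339 and 1323 in wildtype liver, and that of 6 intestinal markers was 473 and 416 in Sox17+/- liver, against 603 and 577 in wildtype liver, with 4 of the 6 below and 1 above.

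The summed signal of 7 macrophage markers was 20802 and 18200.2 in Sox17+/- liver, against 20606 and 16920.2 in wildtype liver, with 3 of the 7 below and 1 above. Among these, Vsig4 had 130.03 and 194 in Sox17+/- liver, against 811 and 364 in wildtype liver. Clec4f had 487 and 402 in Sox17+/- liver, against 1097 and 584 in wildtype liver, and both were highest on wildtype array 1. Marco had 5024 and 3274 in Sox17+/- liver, against 2257 and 1738 in wildtype liver, without overlap in the other direction. The summed signal of 8 stellate and mesenchymal markers was 13052 and 14446 in Sox17+/- liver, against 13963 and 12759 in wildtype liver, with 1 below and 2 above, and Des among them had 251 and 195 in Sox17+/- liver, against 125 and 69.7 in wildtype liver. For 8 endothelial markers it was 8188 and 8171 in Sox17+/- liver, against 8325 and 6600.03 in wildtype liver, with 1 below and 3 above. For 6 erythroid markers it was 89719 and 74369 in Sox17+/- liver, against 86886 and 75578 in wildtype liver, with 1 below and 1 above. Among all genes, 19.0% lay below and 13.9% above. Tested were 8 hepatocyte, 5 cholangiocyte, 2 exocrine pancreas, 2 intestinal, 7 macrophage, 8 stellate and mesenchymal, 8 endothelial and 5 erythroid markers. At an unadjusted p under 0.05 in limma, Vsig4 was lower and Marco, Des and Cldn7 higher among these markers. Of all tested genes, 2.54% were lower and 1.61% higher at that threshold. None of the markers had an adjusted p under 0.05. The part of the other cell types in the results was not tested. In whole liver RNA, fewer hepatocytes and less RNA of these genes per hepatocyte cannot be told apart.

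No member passed the test after adjustment. In a limma fit over all 22519 tested probe sets, 0 were called lower and 0 higher at an adjusted p under 0.05 (0% in each direction), while 521 were lower (2.31%) and 402 higher (1.79%) at an unadjusted p under 0.05. The smallest adjusted p among the 29 tested members was 0.9999. At an unadjusted p under 0.05 in limma, 4 of the 29 were lower (Akr1d1, Abcb11, Amacr and Cyp7a1) and 0 higher, against 2.54% of tested genes lower and 1.61% higher. This count was smaller without wildtype array 1 and larger without wildtype array 2, in fits left with a single wildtype array. The share of all genes in those fits is not given here. Both Sox17+/- arrays lay below both wildtype arrays for 16 of the 29, where the same held for 18.6% of all 11685 tested genes, and above both for 1, against 14.5% of tested genes. Over all 38 members the counts were 19 below and 4 above, against 19.0% and 13.9% of the 18193 genes. With 2 arrays per genotype an exact two-sided permutation test of 1 gene cannot give a p below 0.333.

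One array stood apart from the other 3 for most members. Wildtype array 1 had the highest signal of the 4 for 22 of the 29 tested members, against 30.5% of tested genes, and Sox17+/- array 2 had the lowest for 18, against 23.9%. Over all members the median deviation from the gene's mean on the log2 scale was -0.13 and -0.25 on Sox17+/- arrays 1 and 2, and 0.41 and -0.058 on wildtype arrays 1 and 2. The median log2 difference over the 38 members was -0.41, beside -0.030 over all genes, and it was -0.55 between the arrays numbered 1 and -0.21 between those numbered 2. Set against wildtype array 2 alone, the mean of the Sox17+/- arrays was lower for 25 of the 38 members, against 55.9% of all genes, with a median log2 difference of -0.15, beside -0.049 over all genes. Wildtype array 1 also had the lowest signals of the beta-actin controls, which read a transcript at its 3' end, middle and 5' end. At the 3' end they were 35014 and 24712 in Sox17+/- liver, against 11909 and 27202 in wildtype liver. At the 5' end they were 24424 and 20511 in Sox17+/- liver, against 6102 and 21681 in wildtype liver, and in the middle 23935 and 19843 in Sox17+/- liver, against 4563 and 22294 in wildtype liver. The ratio of the 3' to the 5' beta-actin signal, a common measure of RNA quality, was highest on wildtype array 1. It was 1.43 and 1.20 in Sox17+/- liver, against 1.95 and 1.25 in wildtype liver. The Gapdh control at the 3' end did not single out that array, with 28573 and 19179.8 in Sox17+/- liver, against 27187 and 18514 in wildtype liver. Nor did it at the 5' end, with 33883 and 23057 in Sox17+/- liver, against 31855 and 22952 in wildtype liver. The transferrin receptor control had 4551 and 6807 at the 3' end in Sox17+/- liver, against 3842 and 8385 in wildtype liver. At the 5' end it was lowest on Sox17+/- array 1, with 1055 and 2473 in Sox17+/- liver, against 1136 and 3628 in wildtype liver. The ratio was computed for beta-actin only. The part of RNA quality in the results was not tested. Xist, transcribed from the inactive X chromosome of female cells, had 4459 and 50.9 in Sox17+/- liver, against 4681 and 7608 in wildtype liver, so Sox17+/- array 2 stood apart there as well. The Y-linked genes measured, Eif2s3y, Kdm5d and Uty, were at or below 55.6 on all arrays, and the part of fetal sex in the result was not tested.

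**Figure D1:**
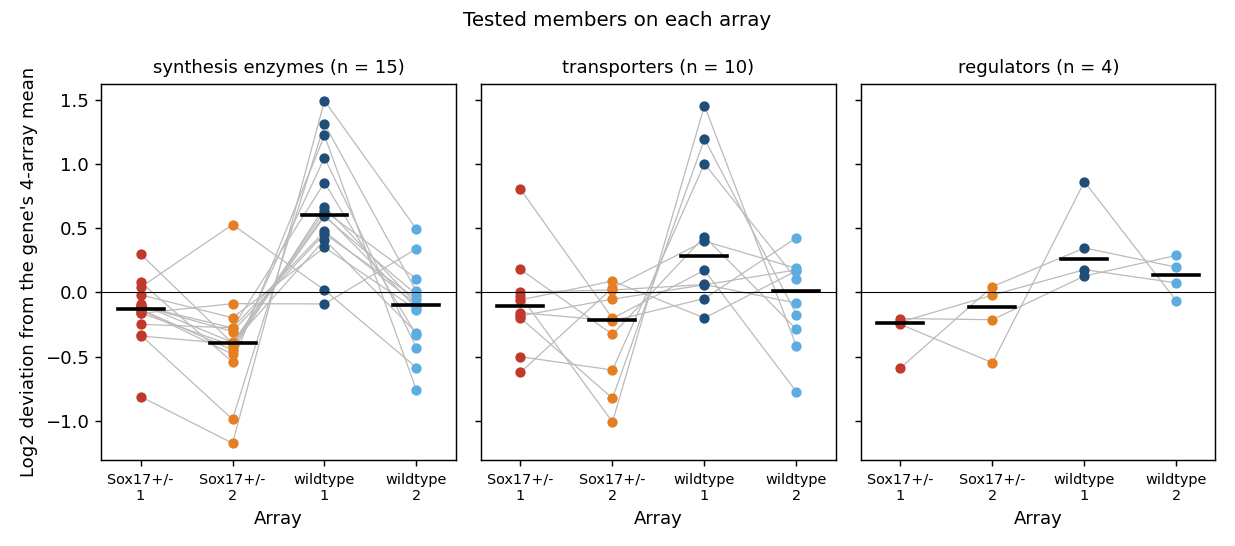
Log2 deviation of each tested member from its own mean over the 4 arrays (vertical axis), for 15 synthesis enzymes, 10 transporters and 4 regulators. Each point is a gene on an array, grey lines join the values of a gene and black bars are medians. Wildtype array 1 carries the highest values for most enzymes.

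Most synthesis enzymes, 15 of 17, had a negative log2 difference between Sox17+/- and wildtype liver, as did 54.5% of all genes. Of the 17 enzymes, 8 had both Sox17+/- arrays below both wildtype arrays and 1 had both above, against 19.0% and 13.9% of all genes. Within both array numbers 13 were lower and 1 higher, against 31.0% and 23.5% of the 18193 genes. Their median log2 difference was -0.48 over all 17, beside -0.030 over all genes. It was -0.70 between the arrays numbered 1 and -0.26 between those numbered 2, and -0.12 without wildtype array 1 and -0.88 without wildtype array 2. Among the 15 tested enzymes, the sign turned without wildtype array 1 for Cyp8b1, Cyp27a1, Hsd3b7, Akr1c6 and Baat. Without Sox17+/- array 2 it turned for Cyp27a1. The 2 dimmer enzymes were not part of this count.

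Cyp7a1, the rate-limiting hydroxylase that opens the classical pathway, had signals of 121 and 70.9 on the Sox17+/- arrays, against 413 and 158 on the wildtype arrays. The groups did not overlap, and wildtype array 1 was by far the highest. The log2 difference was -1.32 (SE 0.49, 95% interval -2.57 to -0.073), with an unadjusted p of 0.0415 and an adjusted p of 0.9999 in limma. Its other probe set gave 69.3 and 49.9 in Sox17+/- liver against 191 and 76.4 in wildtype liver, also without overlap. Cyp8b1, the hydroxylase that directs intermediates to cholic acid, had 446 and 437 on the Sox17+/- arrays, against 978 and 420.4 on the wildtype arrays. It was thus high on wildtype array 1 alone, and the remaining 3 arrays lay within 420 to 446. Its log2 difference was -0.52 (SE 0.42, 95% interval -1.58 to 0.53), and without wildtype array 1 it was 0.069.

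Cyp27a1, the mitochondrial hydroxylase that opens the alternative pathway, had 464 and 280.1 on the Sox17+/- arrays, against 502 and 297 on the wildtype arrays. The arrays numbered 1 were both higher than those numbered 2, and the genotypes overlapped, with a log2 difference of -0.10 (SE 0.37, 95% interval -1.03 to 0.83). Cyp7b1, which hydroxylates the oxysterols of that pathway, was dim and overlapped, at 51.7 and 38.3 in Sox17+/- liver, against 38.4 and 47.9 in wildtype liver. Cyp46a1, a cholesterol hydroxylase known mainly from brain, was also dim, at 46.4 and 7.91 in Sox17+/- liver, against 74.9 and 49.8 in wildtype liver.

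Cyp39a1, an oxysterol hydroxylase of liver, was the only tested member with both Sox17+/- arrays above both wildtype arrays. Its signals were 792 and 1119 on the Sox17+/- arrays, against 781 and 508 on the wildtype arrays. The 2 arrays numbered 1 were almost equal, and the separation came from the arrays numbered 2. The log2 difference was 0.57 (SE 0.31, 95% interval -0.22 to 1.35), with an adjusted p of 0.9999 in limma, and it was 0.021 between the arrays numbered 1 and 1.12 between those numbered 2.

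Akr1d1, the reductase that saturates the steroid ring in the manner typical of bile acids, had the lowest ratio of the tested members. Its signals were 265 and 202 on the Sox17+/- arrays, against 1373 and 678 on the wildtype arrays, or 233 ± 44.3 in Sox17+/- liver against 1025 ± 492 in wildtype liver (mean ± SD, n = 2 each). Even the lower wildtype array was well above both Sox17+/- arrays, and the difference was -2.31 between the arrays numbered 1 and -1.67 between those numbered 2. The log2 difference was -1.99 (SE 0.38, 95% interval -2.96 to -1.02), which corresponds to a 3.97-fold lower signal on that scale, with an unadjusted p of 0.00303 and an adjusted p of 0.9999 in limma. The other Akr1d1 probe set showed the same order, with 309 and 183 in Sox17+/- liver against 819.8 and 583 in wildtype liver. Hsd3b7, the dehydrogenase that acts on the ring before Akr1d1, had 3184 and 2811 on the Sox17+/- arrays, against 4120.2 and 2937 on the wildtype arrays, and its groups overlapped. Akr1c6, an aldo-keto reductase of steroids, had 309 and 195 on the Sox17+/- arrays, against 702 and 165 on the wildtype arrays. Its wildtype arrays spanned more than its genotypes differed, and the log2 difference was -0.46 (SE 0.67, 95% interval -2.17 to 1.24).

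The 6 peroxisomal enzymes of side chain shortening were each lower within both array numbers, as were 32.2% of tested genes. For 4 of them both Sox17+/- arrays lay below both wildtype arrays, as for 18.6% of tested genes. Amacr, the racemase that prepares the side chain for oxidation, had 844 and 808 on the Sox17+/- arrays, against 1677 and 1156 on the wildtype arrays, with a log2 difference of -0.74 (SE 0.26, 95% interval -1.39 to -0.094) and an unadjusted p of 0.0318 in limma. The Sox17+/- arrays were close to each other and below both wildtype arrays. Acox2, the oxidase that opens the side chain cycle, had 2334 and 1954 on the Sox17+/- arrays, against 3944 and 2579 on the wildtype arrays. Hsd17b4, the multifunctional enzyme of the next steps, had 1834 and 1592 on the Sox17+/- arrays, against 2713 and 1903 on the wildtype arrays. For both, the lower wildtype array lay only slightly above the higher Sox17+/- array. Scp2, which holds the thiolase of the last step, had 8175 and 6654 on the Sox17+/- arrays, against 13279 and 8014 on the wildtype arrays, and Sox17+/- array 1 overlapped wildtype array 2. Slc27a2, an acyl-CoA synthetase that activates precursors, had 4730.1 and 4198 on the Sox17+/- arrays, against 7087 and 4766 on the wildtype arrays, and the nearest arrays of the 2 genotypes were almost equal. Acot8, a peroxisomal thioesterase, had 1007 and 1063 on the Sox17+/- arrays, against 1061 and 1436 on the wildtype arrays. Wildtype array 2 was the highest there, and the remaining 3 arrays were alike. The log2 differences of these 6 ran between -0.74 for Amacr and -0.25 for Acot8.

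Both enzymes of conjugation were lower in mean signal. Slc27a5, the synthetase that activates bile acids for conjugation, had 937 and 749 on the Sox17+/- arrays, against 1644 and 966 on the wildtype arrays. The nearest arrays, Sox17+/- array 1 and wildtype array 2, differed little. Baat, which joins bile acids to taurine or glycine, had 153 and 117 on the Sox17+/- arrays, against 368 and 121 on the wildtype arrays, with only wildtype array 1 standing apart. Their log2 differences were -0.58 (SE 0.32, 95% interval -1.39 to 0.23) for Slc27a5 and -0.62 (SE 0.51, 95% interval -1.91 to 0.67) for Baat. The other Baat probe set separated the genotypes, with 90.7 and 35.6 in Sox17+/- liver against 168 and 166 in wildtype liver.

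**Figure D2:**
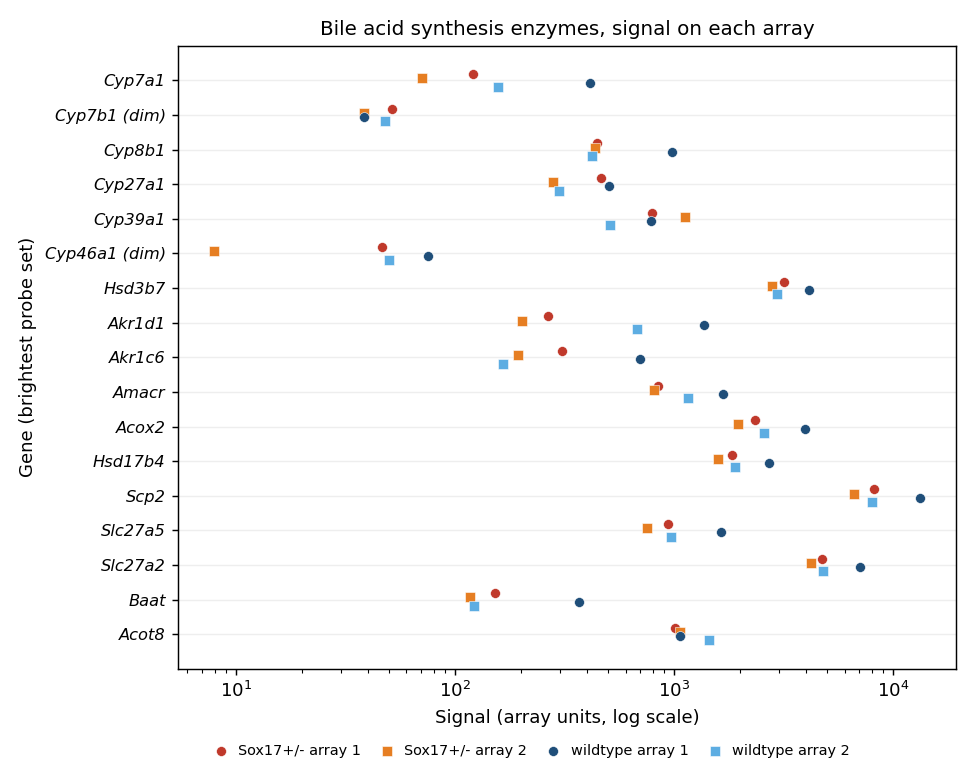
Signal of the 17 synthesis enzymes on each array (horizontal axis, array units, log scale), with Sox17+/- arrays in red and orange and wildtype arrays in dark and light blue. Akr1d1 shows the widest gap between genotypes among the brighter genes, and dim genes are those outside the brighter 50% of probe sets.

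Of the 16 transporters, 7 had both Sox17+/- arrays below both wildtype arrays and 3 had both above, against 19.0% and 13.9% of all genes. Those 3 were all dim. Of the 10 that were tested, 5 were below, 0 above and 5 overlapped, against 18.6% below and 14.5% above among tested genes. Their median log2 difference was -0.19 over all 16, beside -0.030 over all genes, and -0.25 between the arrays numbered 1 and -0.12 between those numbered 2. It was -0.13 without wildtype array 1 and -0.32 without Sox17+/- array 2, and -0.31 over the 10 that were tested.

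Abcb11, the bile salt export pump of the canalicular membrane, had 435 and 403 on the Sox17+/- arrays, against 1264 and 669 on the wildtype arrays. The Sox17+/- arrays were close together and lay below both wildtype arrays. The log2 difference was -1.11 (SE 0.34, 95% interval -1.97 to -0.24), with an unadjusted p of 0.0214 and an adjusted p of 0.9999 in limma, and it was -1.51 between the arrays numbered 1 and -0.71 between those numbered 2. Abcb4, which moves phosphatidylcholine into bile, had 2467 and 2702 on the Sox17+/- arrays, against 2921 and 3168 on the wildtype arrays. It separated the genotypes by a small step that was alike in both array numbers, with a log2 difference of -0.24 (SE 0.20, 95% interval -0.75 to 0.28).

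Abcc2, the canalicular exporter of bilirubin conjugates and other organic anions, went the other way. Its signals were 761 and 371 on the Sox17+/- arrays, against 486 and 244 on the wildtype arrays. The groups overlapped, as the arrays numbered 1 were higher in both genotypes, but within each number the Sox17+/- array was higher, with a log2 difference of 0.63 between the arrays numbered 1 and 0.57 between those numbered 2. The overall difference was 0.60 (SE 0.47, 95% interval -0.59 to 1.79), with an adjusted p of 0.9999 in limma.

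Abcg5 and Abcg8 together form the exporter of cholesterol into bile, and their probe sets differed in direction. Abcg8 had 196 and 187 on the Sox17+/- arrays, against 213 and 302 on the wildtype arrays, without overlap and with a log2 difference of -0.38 (SE 0.24, 95% interval -0.999 to 0.24). Abcg5 was dim, at 58.5 and 40.2 in Sox17+/- liver, against 16.1 and 31.3 in wildtype liver, and not tested. Atp8b1, a lipid flippase of the canalicular membrane, had 562 and 391 on the Sox17+/- arrays, against 675 and 403 on the wildtype arrays, and its genotypes overlapped. Its log2 difference was -0.15 and turned positive without wildtype array 1 or without Sox17+/- array 2.

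The uptake carriers of the sinusoidal membrane with bright probe sets were lower. Slc10a1, the sodium-dependent carrier of conjugated bile acids, had 1822 and 914 on the Sox17+/- arrays, against 5131 and 1387 on the wildtype arrays. Wildtype array 1 was far above the rest, and Sox17+/- array 1 was above wildtype array 2, so the genotypes overlapped. The log2 difference was -1.04 (SE 0.68, 95% interval -2.77 to 0.69), wider in its interval than any other transporter. Slco1b2, an organic anion carrier of hepatocytes, had 217 and 135 on the Sox17+/- arrays, against 598 and 222 on the wildtype arrays, and Sox17+/- array 1 and wildtype array 2 were nearly equal. Slco2b1, a carrier of related substrates, had 122 and 202 on the Sox17+/- arrays, against 265 and 226 on the wildtype arrays, with a log2 difference of -0.59 (SE 0.29, 95% interval -1.32 to 0.15). The intervals of all 3 uptake carriers included 0.

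Slco1a1 and Slco1a4, carriers known from adult rodent liver, were dim. The brighter Slco1a1 probe set had 67.6 and 67.0 in Sox17+/- liver, against 20.01 and 7.83 in wildtype liver. The other had 10.5 and 12.7 in Sox17+/- liver, against 77.8 and 30.3 in wildtype liver. The 2 probe sets thus separated the genotypes in opposite directions, so no direction is given for the gene. Slco1a4 had 14.5 and 16.9 in Sox17+/- liver, against 20.8 and 32.0 in wildtype liver.

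The bright exporters of the sinusoidal membrane had differences close to 0, and their genotypes overlapped. Abcc3, which exports glucuronides and bile acids to blood, had 372 and 414 on the Sox17+/- arrays, against 336 and 438 on the wildtype arrays, with a log2 difference of 0.031 (SE 0.23, 95% interval -0.55 to 0.61). Abcc4, an exporter of related range, had 436 and 441 on the Sox17+/- arrays, against 455 and 409.9 on the wildtype arrays, with a log2 difference of 0.021 (SE 0.20, 95% interval -0.49 to 0.53). These intervals leave room for differences of either sign, and the sign of both turned when single arrays were left out. Both subunits of the organic solute transporter were dim. Slc51a had 52.2 and 54.3 in Sox17+/- liver, against 120.2 and 71.1 in wildtype liver, without overlap. Slc51b had 6.17 and 40.1 in Sox17+/- liver, against 31.4 and 14.1 in wildtype liver, with overlap. Slc10a2, the uptake carrier of ileum and bile duct cells, was the dimmest member, at 12.8 and 13.7 in Sox17+/- liver, against 2.38 and 3.66 in wildtype liver.

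**Figure D3:**
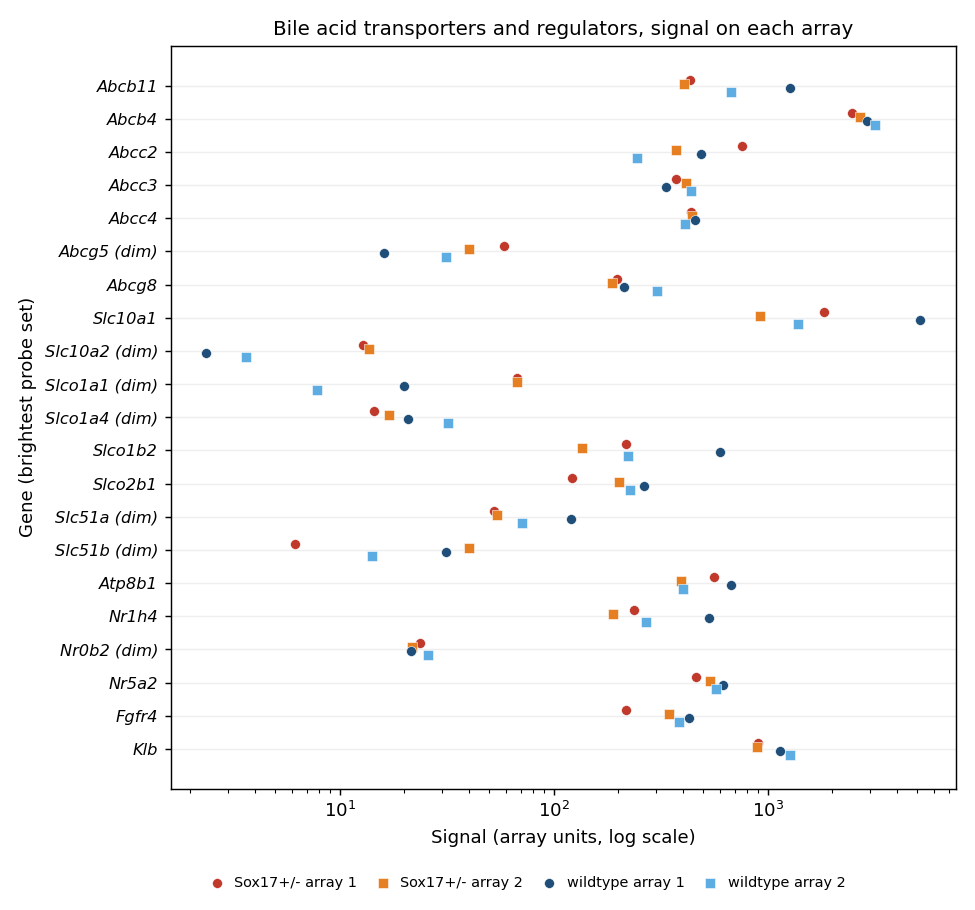
Signal of the 16 transporters and 5 regulators on each array (horizontal axis, array units, log scale), with Sox17+/- arrays in red and orange and wildtype arrays in dark and light blue. Abcb11 and Slc10a1 lie highest on wildtype array 1, and Abcc3 and Abcc4 have all 4 arrays close together.

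Of the 5 regulators, 4 had both Sox17+/- arrays below both wildtype arrays, against 19.0% of all genes. The remaining one, Nr0b2, was dim and overlapped. The 4 include Nr5a2, whose other probe sets overlapped. The median log2 difference was -0.42, beside -0.030 over all genes, and it was -0.33 without wildtype array 1, -0.23 without Sox17+/- array 1 and -0.035 when all probe sets of a gene were averaged. Nr1h4, the bile acid receptor FXR, had 236 and 189 on the Sox17+/- arrays, against 529.7 and 270.4 on the wildtype arrays. Wildtype array 1 was again the highest, and the log2 difference was -0.80 (SE 0.36, 95% interval -1.71 to 0.11). Nr0b2, the repressor SHP that FXR induces, had 23.8 and 21.7 in Sox17+/- liver, against 21.6 and 25.9 in wildtype liver. Nr5a2, the receptor LRH-1 that supports Cyp7a1 transcription, had 461 and 535 on the Sox17+/- arrays, against 617 and 573 on the wildtype arrays on its brightest probe set. Its 3 other probe sets all overlapped, with log2 differences of -0.010, 0.13 and 0.63, so the lower signal was seen on 1 of 4 probe sets.

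The receptor complex for the intestinal hormone FGF15 was lower on its brightest probe sets. Klb, the co-receptor, had 899 and 893 on the Sox17+/- arrays, against 1135 and 1271 on the wildtype arrays, with the Sox17+/- arrays almost equal and a log2 difference of -0.42 (SE 0.20, 95% interval -0.93 to 0.094). The difference was -0.33 between the arrays numbered 1 and -0.50 between those numbered 2, so it did not rest on wildtype array 1. Fgfr4, the receptor itself, had 217 and 345 on the Sox17+/- arrays, against 429.6 and 386 on the wildtype arrays, with a log2 difference of -0.54 (SE 0.28, 95% interval -1.26 to 0.17). All 5 probe sets of Fgfr4 had a lower mean in Sox17+/- liver.

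**Figure D4:**
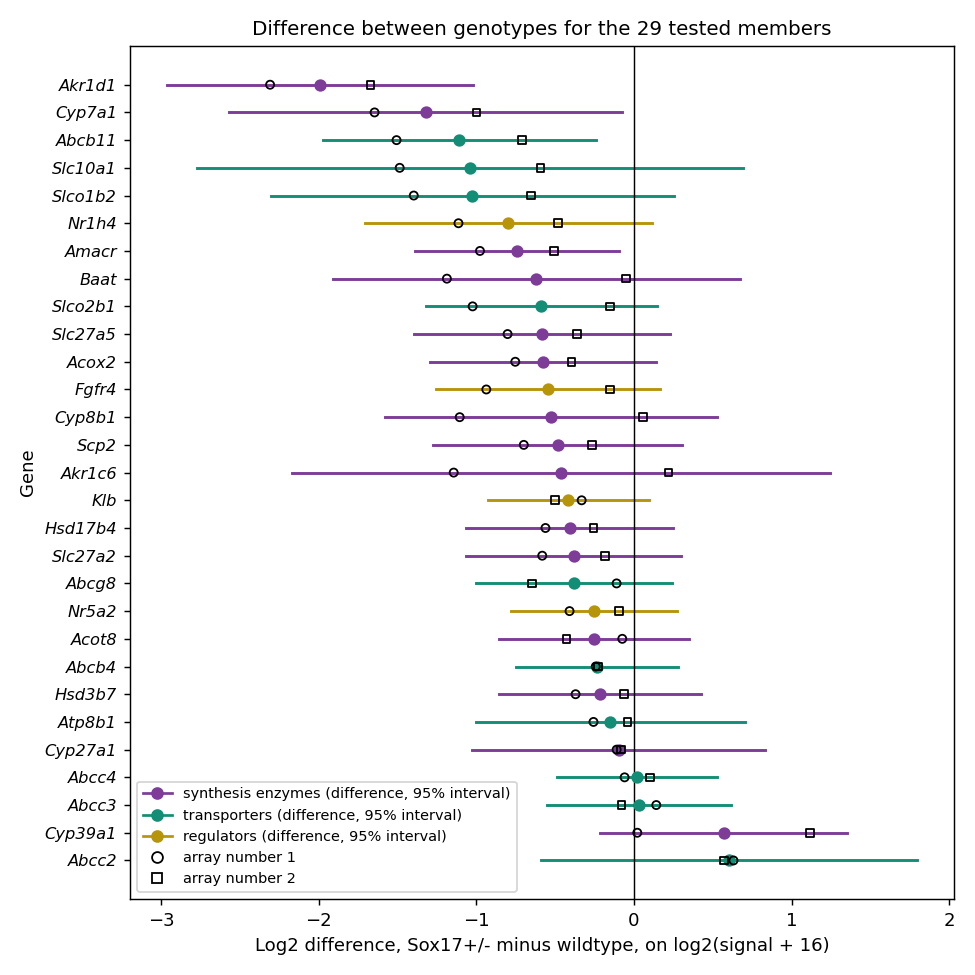
Log2 difference between Sox17+/- and wildtype for the 29 tested members (horizontal axis, on log2(signal + 16)), ordered from lowest to highest, with 95% intervals of the limma fit that are not adjusted for the number of genes. Open circles are the difference between the arrays numbered 1 and open squares that between the arrays numbered 2, and 4 intervals, those of Akr1d1, Cyp7a1, Abcb11 and Amacr, exclude 0.

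The replicate numbers set 1 Sox17+/- array beside 1 wildtype array, and a code in the labels' array names is shared by each such pair. What the code marks is not given there. Within both numbers 23 of the 29 tested members were lower, against 32.2% of tested genes, and 2 were higher, against 25.5%. The 4 mixed members were Cyp8b1, Akr1c6, Abcc3 and Abcc4. Differences of the arrays numbered 1 were the larger for most members, as the plot of both numbers shows, whereas Cyp39a1, Acot8, Abcc4, Abcg8 and Klb had the larger difference between the arrays numbered 2.

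**Figure D5:**
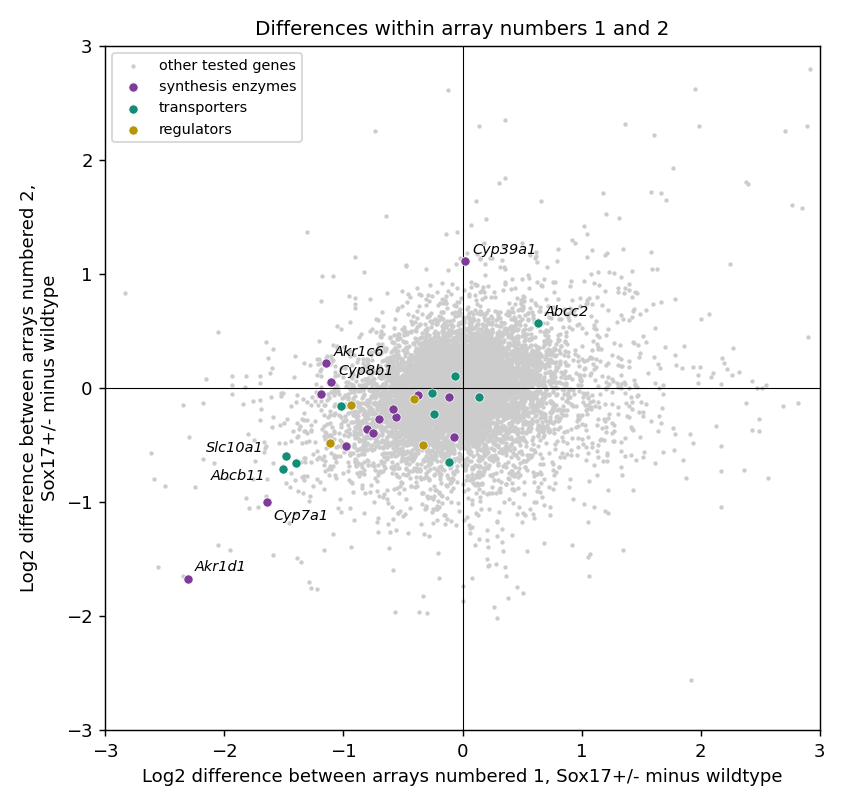
Log2 difference between the Sox17+/- and the wildtype array numbered 1 (horizontal axis) against that between the arrays numbered 2 (vertical axis), for 11685 tested genes in grey and 29 members in colour, with 20 genes outside the axes. Most members lie at the lower left, below 0 on both axes, and Cyp39a1 and Abcc2 lie in the upper right.

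Several members had more than 1 probe set, which allowed the direction to be read again. Of 14 such members, 8 had a lower mean in Sox17+/- liver on all their probe sets, namely Akr1d1, Baat, Cyp7a1, Fgfr4, Hsd17b4, Scp2, Slc10a1 and Slco2b1. The other 6 were mixed, namely Cyp27a1, Cyp7b1, Klb, Nr5a2, Slco1a1 and Slco1b2. In Klb and Cyp27a1 the deviating probe set was dim.

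Of 61 further genes of bile acid metabolism and its control, 52 had a probe set of their own and 45 were tested. With limma 0 passed after adjustment. At an unadjusted p under 0.05 in limma, 3 of the 45 were lower and 0 higher, against 2.54% and 1.61% of tested genes. Both Sox17+/- arrays lay below both wildtype arrays for 11 of the 45 and above both for 3, against 18.6% and 14.5% of tested genes, and the median log2 difference was -0.13, beside -0.022 over tested genes. Cyp3a11, a cytochrome P450 that also hydroxylates bile acids, had 2179.8 and 2026 on the Sox17+/- arrays, against 5761 and 4342 on the wildtype arrays, with a log2 difference of -1.24 and an unadjusted p of 0.00274 in limma. It was the lowest p of this list, and the lower wildtype array was well above both Sox17+/- arrays.

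The water channel gene Aqp1 had 1655 and 2239.6 on the Sox17+/- arrays, against 2947 and 3013 on the wildtype arrays, and Pctp, a phosphatidylcholine transfer protein, had 638 and 637 on the Sox17+/- arrays, against 1209 and 842 on the wildtype arrays. Acaa1b, a peroxisomal thiolase, had 960.3 and 622 on the Sox17+/- arrays, against 2757 and 1005 on the wildtype arrays, and Slc9a3r1, a scaffold of apical transporters, had 3626 and 4879 on the Sox17+/- arrays, against 6863 and 5234 on the wildtype arrays. All 4 separated the genotypes with lower signals in Sox17+/- liver. Ch25h, a cholesterol hydroxylase induced by inflammation, separated them in the other direction, at 297 and 142 in Sox17+/- liver, against 46.5 and 128 in wildtype liver. The hepatocyte factor Hnf4a had 2867 and 2687 in Sox17+/- liver, against 3924 and 2641 in wildtype liver, and only wildtype array 1 was higher there. Further such factors on the list went either way, and the genotypes overlapped for each. Their log2 differences were -0.56 for Cebpa, -0.13 for Foxa2, 0.098 for Foxa1 and 0.40 for Prox1.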

How the data were processed

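Total RNA of fetal liver was labelled as biotinylated cRNA and hybridised to single-colour Affymetrix arrays, 2 per genotype. MAS5 is named in the submitters' processing notes, and the intensity values deposited by the authors are its probe set signals on a linear scale. Each array had a trimmed mean of 500, with 2% removed at either end. The log2 values were computed here from the deposited signals. Median signals lay between 84.7 and 103. No detection calls were used. Arrays have no read depth, and their number limits the precision.

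Of 45101 probe sets, 64 controls were left out, and 34945 of the rest had 1 gene symbol, 932 several and 9160 none listed. Signals were taken as log2(signal + 16), which understates differences of dim genes. The brighter 50% by mean log2 value (22519 probe sets, at or above a signal of 84.9) were fitted with genotype as the only term in limma 3.58.1 (R 4.3.3, lmFit and eBayes, two-sided), with Benjamini-Hochberg adjustment over all of them. The code was tested on simulated data. Among members the filter fell between Slc51a, at a geometric mean of 70.9, and Cyp7a1, at 157.

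Alternatives were other filters, pseudocounts, centring, a trended robust prior, averaging of probe sets, a replicate block and leaving out each array. Groups and replicate numbers came from the sample titles. All 38 members, Sox17, the 6 other pathway genes with the smallest p, and promoters at both ends of the ranking (2 each, with the next gene where none was listed) are named. Markers, Hnf4a, Cebpa, Foxa1, Foxa2, Prox1, Cyp2b10 and Slc22a7 lie outside this rule and were picked with their values in view. Members and lists were chosen with earlier results of these data known. Replicates labelled as biological may share a litter, so p-values measure the spread between these samples.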

Additional observations from a re-analysis of the deposited data

How the results depend on the processing

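No probe set and no member passed the adjusted test with genotype alone, and the number of members passing stayed at 0 under every alternative run. A trended robust prior called 3 probe sets and centring on the median of all probe sets, chosen after seeing the data, called 5. With the brighter 25% of probe sets, which fewer members pass, the transporters' median was -0.64 over the transporters past that filter only. Only among the members past that filter, 10 had both Sox17+/- arrays below both wildtype arrays. The number of members past it is not given here, so the 10 cannot be read as a fall from 19 of 38. Centring on the median of all probe sets left 12 of the 38. That centring also moved the median log2 difference over all probe sets from -0.024 to 0.023. The share of all genes below in either setting is not given here. The transporters' median was -0.31 over members past the filter, also chosen after seeing the data, and -0.30 with a pseudocount of 1. Averaging all probe sets of a gene brought the regulators' median to -0.035 and turned Nr5a2 to 0.13.

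Leaving out each array in turn, with the lone array assumed to vary like the other genotype, moved the median of the synthesis enzymes between -0.88 (without wildtype array 2) and -0.12 (without wildtype array 1). It moved that of the transporters between -0.32 and -0.13, that of the regulators between -0.41 and -0.23, and the count of members with the Sox17+/- arrays below the wildtype arrays between 21 and 28 of 38 (55.3% to 73.7%). With 1 array on one side this occurs more readily, and it held for 35.0% to 37.8% of all genes. Among the 29 tested members, the log2 difference changed sign in 8. It lay within -1.12 to 0.069 for Cyp8b1, -0.46 to 0.27 for Cyp27a1, -0.46 to 0.027 for Hsd3b7 and -1.46 to 0.53 for Akr1c6. The range was -1.36 to 0.12 for Baat, -0.15 to 0.21 for Abcc3, -0.051 to 0.094 for Abcc4 and -0.51 to 0.21 for Atp8b1. The 9 dimmer members were not part of this count. The count of members at an unadjusted p under 0.05 in limma fell without wildtype array 1 and rose without wildtype array 2. The share of all genes in those fits is not given here. The causes were not tested.

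The labels do not say that a number marks a shared litter or day. Over 22519 probe sets the deviations of same-numbered arrays correlated at r = 0.383 across probe sets. With the replicate block 0 probe sets and 0 members were called, the unadjusted counts were 10 members and 1693 probe sets, against 4 and 923 without it, and the medians were -0.48, -0.19 and -0.42 for synthesis enzymes, transporters and regulators.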

Other observations

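Cyp2b10, a cytochrome P450 gene known as a target of the receptor CAR, was dim and not tested, with signals of 6.98 and 7.69 in Sox17+/- liver, against 53.9 and 92.5 in wildtype liver. It was lower on both Sox17+/- arrays, and wildtype array 2, not wildtype array 1, was the highest. Slc22a7, an organic anion carrier, was dim as well, at 10.9 and 21.1 in Sox17+/- liver, against 23.3 and 82.3 in wildtype liver. Both genes were named after their values were seen.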
